A study of Arabidopsis thaliana with 12 samples.

Results

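SAUR genes (SMALL AUXIN UP RNA) encode short proteins, and the family is named for members whose transcripts accumulate within minutes of auxin treatment. They were taken here as every gene whose deposited description contained SAUR-like auxin-responsive, or whose deposited symbol was SAUR followed by a number. This rule found 78 of the 33602 genes in the deposited tables. All 78 met it by the description and 2 of them, SAUR15 and SAUR68, also by the symbol. RNA was sequenced from whole 8-d-old Arabidopsis seedlings, roots included, with 3 libraries for each of 4 genotypes and about 200 pooled seedlings in each library. Col-0 is the wild type and the background of all lines. The quintuple mutant jazQ carries the alleles jaz1-2, jaz3-4, jaz4-1, jaz9-4 and jaz10-1, the triple mutant mycT carries jin1-7/myc2-1, myc3-1 and myc4-1, and the octuple mutant jazQ mycT combines all of them. No library was treated with jasmonate or with auxin, and each mutant was a single line.

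JAZ proteins repress the transcription factors MYC2, MYC3 and MYC4 until jasmonate triggers the degradation of the JAZ proteins, which releases defense gene expression and restrains growth. Auxin acts by removing Aux/IAA repressors from ARF transcription factors, and SAUR genes are among the early targets of these factors. In the acid growth model, SAUR proteins inhibit phosphatases of the PP2C D clade, which keeps plasma membrane proton pumps phosphorylated and active, so that the wall is acidified and the cell can elongate. Brassinosteroids, gibberellin, light and temperature also act on SAUR transcription, so SAUR transcript levels are widely used as a readout of growth by elongation rather than of auxin alone.

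The library totals lay between 12336090 and 26347184 counts. Genes for ribosomal RNA, organelles included, took 0.723% to 2.08% of the counts in 10 libraries, 5.04% in replicate 1 of mycT and 10.8% in replicate 1 of jazQ mycT. JAZ1 transcripts averaged 51.1 TPM in Col-0 and 5.33 TPM in jazQ, where TPM is the read count divided by gene length and scaled to the same total in every library. With the myc mutations present the averages were 37.6 TPM without and 4.87 TPM with jazQ. Counts over whole genes say less of the other insertion alleles: JAZ4 averaged 5.51 TPM in Col-0 and 2.43 TPM in jazQ, while JAZ3 and JAZ10 were higher in jazQ, at 614 and 320 TPM against 12.8 and 4.59 TPM. JAZ9 averaged 78.6 TPM in Col-0 and 88.5 TPM in jazQ (edgeR, adjusted p = 0.578), so its level did not bear out the label. The counts do not check the myc insertions either, since MYC2 in mycT still averaged 16.8 TPM and MYC4 averaged 22.6 TPM. The Col-0 and jazQ libraries were first deposited with an earlier study, and by the methods of the study the other lines were handled alongside them. The comparisons of jazQ with Col-0 and of jazQ mycT with mycT therefore stay within one set of libraries, whereas those of mycT and jazQ mycT with Col-0 or jazQ cross from one set to the other. The sets are defined by the first deposit alone, and the sample labels name no batch. If there was a shift between the sets, it cannot be told apart from a change of genotype in the comparisons that cross.

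SAUR genes are compact and clustered. By the RefSeq annotation of TAIR10.1, which matched all 78 members by locus tag, 75 of the 78 had a single coding exon, against 23.9% of all protein-coding genes. The encoded proteins had 86 to 190 residues, with a median of 121. In all, 39 members lay in 9 tandem clusters, in which neighbours were at most 20 kb apart. Some neighbours are near copies of each other, and the 50-base reads could then fall on more than 1 gene. The coding stretch printed here for SAUR19 to SAUR24, on the strand of each gene, shows this. The RefSeq coordinates (TAIR10.1) are chr5:5963190-5963239 for SAUR19, chr5:5966465-5966514 for SAUR20 and chr5:5974848-5974897 for SAUR22 on the minus strand. On the plus strand they are chr5:5968587-5968636 for SAUR21, chr5:5976096-5976145 for SAUR23 and chr5:5983906-5983955 for SAUR24. Capitals mark the bases at which a copy differs from SAUR19.
SAUR19: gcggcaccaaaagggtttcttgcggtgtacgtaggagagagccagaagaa
SAUR20: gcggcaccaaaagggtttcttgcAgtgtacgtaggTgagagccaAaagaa
SAUR21: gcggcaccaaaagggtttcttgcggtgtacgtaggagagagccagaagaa
SAUR22: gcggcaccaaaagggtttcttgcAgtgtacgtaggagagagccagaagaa
SAUR23: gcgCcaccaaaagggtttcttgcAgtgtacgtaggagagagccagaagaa
SAUR24: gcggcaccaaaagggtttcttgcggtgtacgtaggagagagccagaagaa
The stretch was identical in SAUR19, SAUR21 and SAUR24, and differed at 3 bases in SAUR20, 1 base in SAUR22 and 2 bases in SAUR23. A read from it could not be assigned to 1 of the 3 identical genes, so the split of counts among SAUR19 to SAUR24 is uncertain. Over all members, 59 shared no 50-base stretch of transcript with another protein-coding gene, and 9 shared over 10% of such stretches. The longest coding transcript of each gene was compared, and noncoding genes and other transcripts were not searched. Those 9 included SAUR13, which shared 88.1% of its stretches with an overlapping gene, and SAUR44, which shared all of them. Of the 11 members that passed a test below, 10 shared none and SAUR66 shared 0.4%.

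Most of the family could be measured, at widely different levels. Of the 78 members, 58 passed the filter on low counts that left 20888 genes for testing, and 20 did not. None of these 20 reached more than 85 counts over the 12 libraries together, and 3 of them, SAUR11, SAUR39 and SAUR47, had no count at all. The mean over all libraries was at least 1 TPM for 57 members, at least 5 TPM for 32 and at least 20 TPM for 10. Together the 10 most abundant members held 67.0% of all SAUR transcripts in TPM. SAUR78, which like SAUR76 and SAUR77 has been tied to ethylene signalling, was the most abundant at 130.3 TPM. It was followed by SAUR6, SAUR32, SAUR14, SAUR55, SAUR16, SAUR50, SAUR59, SAUR31 and SAUR68. SAUR32 (AAM1) is known for maintenance of the apical hook, and SAUR14, SAUR16 and SAUR50 are light-induced genes of the cotyledons.

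**Figure D1:**
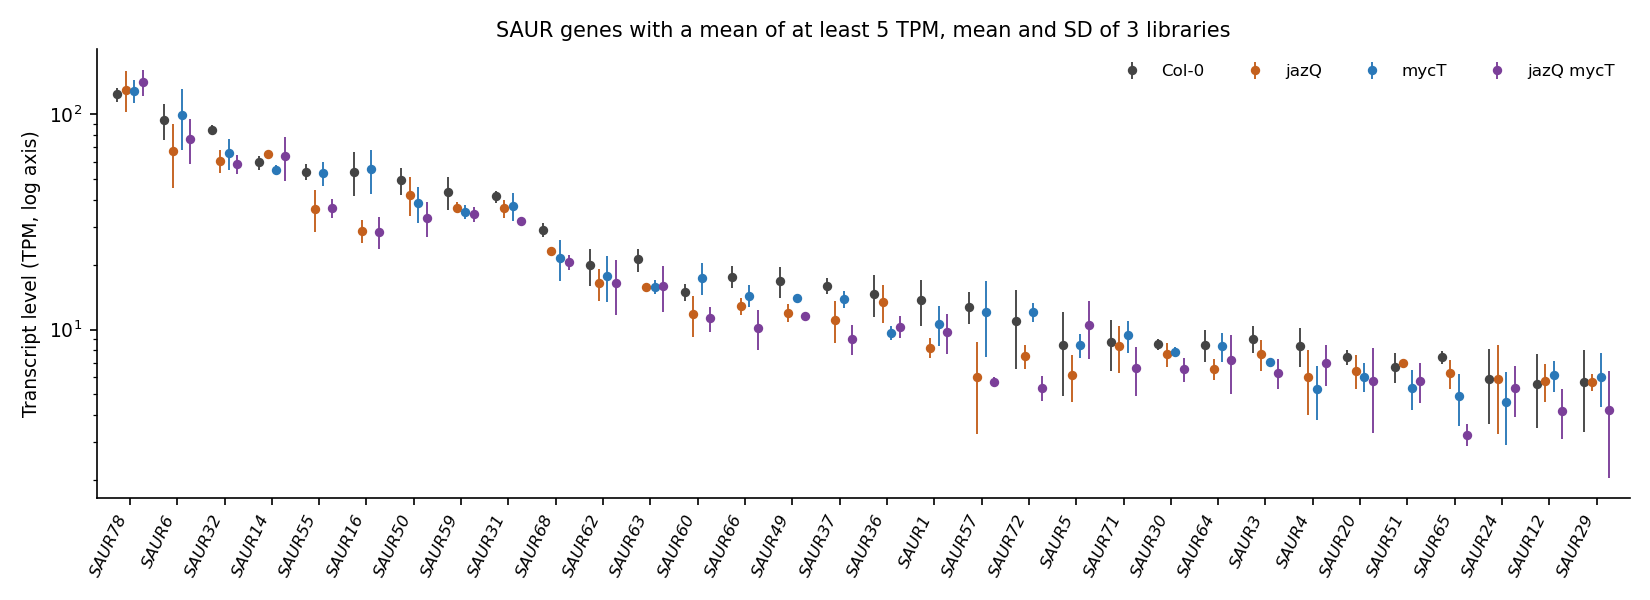
Transcript levels in TPM (log axis) of the 32 SAUR genes that averaged 5 TPM or more, ordered by that mean, with points for the mean and bars for the SD of 3 libraries of each genotype. SAUR78 averaged 123 to 141 TPM in the 4 genotypes, whereas SAUR16 and SAUR55 were lower in jazQ and jazQ mycT than in Col-0 and mycT. Relative to Col-0, SAUR16 passed the edgeR test in both jazQ and jazQ mycT, and SAUR55 in neither.

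The effect of jazQ in plants with wild-type MYC genes was the first comparison. SAUR transcripts were on balance lower in jazQ than in Col-0, and 3 of the 58 genes tested fell: SAUR16, SAUR32 and SAUR49 (edgeR quasi-likelihood test, Benjamini-Hochberg adjusted p under 0.05). None rose. Over all genes tested, 1.11% were called lower and 1.75% higher in this comparison. At an unadjusted p under 0.05, 16 SAUR genes were lower and none was higher, and 8.21% of all genes tested were lower. The summed SAUR level was 1026, 954 and 903 TPM in Col-0 replicates 1 to 3 and 764, 734 and 865 TPM in jazQ, so that every jazQ library lay below every Col-0 library. The median of the 58 log2 fold changes was −0.32 and 79.3% of them were below 0, while the median over all genes tested was −0.0069 and 51.8% were below 0. Among the 32 members with a mean of at least 5 TPM the median was −0.30 and 26 were below 0.

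SAUR16 (AT4G38860, chr4:18130237-18131284, plus strand), one of the genes that act when cotyledons open in the light, showed the largest change of the 3. Its level was 67.6, 51.5 and 43.1 TPM in Col-0 and 29.7, 24.9 and 31.5 TPM in jazQ. The groups did not overlap, and the fold change was −0.92 on the log2 scale (SE 0.19, edgeR, adjusted p = 0.0226), or 52.8% of the Col-0 level. SAUR32 (AT2G46690, chr2:19180705-19181600, plus strand) measured 84.1, 88.6 and 79.7 TPM in Col-0 and 65.7, 64.2 and 52.3 TPM in jazQ. Its log2 fold change was −0.47 (SE 0.11, edgeR, adjusted p = 0.0439). SAUR49 (AT4G34750, chr4:16577180-16578452, plus strand), known as a promoter of leaf senescence, measured 19.8, 16.1 and 14.3 TPM in Col-0 and 10.9, 13.2 and 11.9 TPM in jazQ, and its log2 fold change was −0.50 (SE 0.11, edgeR, adjusted p = 0.0299). For both genes the libraries of the genotypes were again fully separated, and in all 15 of the 58 members were lower in jazQ with no overlap in TPM, against 9.07% of all genes tested. The calls depended on single libraries. No member passed when Col-0 replicate 1 or 2 or jazQ replicate 1 or 2 was left out, with an adjusted p for SAUR16 of 0.101, 0.0546, 0.0571 and 0.0940 in that order. The median over the members stayed between −0.38 and −0.24 on omission of any single library.

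The effect of jazQ in plants that carry the myc mutations was given by jazQ mycT relative to mycT, which used none of the libraries of the comparison before. SAUR16 fell here as well, together with SAUR37, SAUR46, SAUR55, SAUR60, SAUR66 and SAUR72, and no member rose. This made 7 of 58 lower (edgeR, adjusted p under 0.05), where 3.77% of all genes tested were called lower and 4.05% higher. At an unadjusted p under 0.05, 12 members were lower and 1 was higher, and 12.2% of all genes tested were lower. The summed level was 906, 912 and 812 TPM in mycT and 645, 812 and 831 TPM in jazQ mycT. The lowest sum belonged to the jazQ mycT library with the highest share of ribosomal RNA, and the ranges of the genotypes overlapped. The median log2 fold change of the 58 genes was −0.22 and 79.3% were below 0, against −0.0041 and 50.9% over all genes tested. Marker genes of both organs were lower by a similar amount in this comparison, with a median of −0.18 and 16 of 17 below 0 for root markers and a median of −0.21 and 15 of 16 below 0 for shoot markers. Their part in the SAUR values was not tested.

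For SAUR16 the libraries read 69.4, 52.3 and 44.1 TPM in mycT and 23.0, 31.5 and 30.8 TPM in jazQ mycT. They did not overlap, and the log2 fold change of −0.98 (SE 0.18, edgeR, adjusted p = 0.00755) kept an adjusted p under 0.05 on omission of each of the 12 libraries in turn, with a highest value of 0.0321. SAUR46 (AT2G37030) measured 6.25, 7.22 and 6.47 TPM in mycT and 3.24, 2.97 and 2.19 TPM in jazQ mycT. It had the largest log2 fold change of the 7, at −1.22 (SE 0.27, edgeR, adjusted p = 0.0174), on no more than 40 counts in a library. SAUR72 (AT3G12830), of the SAUR41 subfamily that promotes cell expansion, measured 11.2, 13.5 and 11.5 TPM in mycT and 6.13, 5.29 and 4.68 TPM once jazQ was added. The log2 fold change of SAUR72 was −1.15 (SE 0.24, edgeR, adjusted p = 0.0135). SAUR55 (AT5G50760), among the most abundant members, measured 45.6, 58.9 and 55.1 TPM in mycT and 35.6, 40.7 and 33.4 TPM in jazQ mycT. In each of these genes every jazQ mycT library was below every mycT library, which held for 16 of the 58 members and for 11.8% of all genes tested.

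SAUR37 (AT4G31320) measured 15.1, 13.9 and 12.5 TPM in mycT and 7.71, 8.84 and 10.6 TPM in jazQ mycT. SAUR60 (AT1G20470) measured 20.8, 15.6 and 15.8 TPM against 9.65, 11.6 and 12.6 TPM, and SAUR66 (AT1G29500) 13.7, 16.3 and 13.2 TPM against 8.54, 9.37 and 12.7 TPM, in the same order. Their libraries did not overlap either, although for SAUR66 the gap was narrow. The log2 fold change was −0.53 for SAUR55, −0.64 for SAUR60, −0.62 for SAUR37 and −0.51 for SAUR66 (edgeR, adjusted p between 0.0290 and 0.0473). Each call except that of SAUR16 was lost on omission of at least 1 library. SAUR72 was lost without jazQ mycT replicate 2 (adjusted p = 0.0528) or 3 (0.0658), and SAUR46 at most without jazQ mycT replicate 3 (0.0836). The highest adjusted p was 0.172 for SAUR55 without jazQ mycT replicate 3, 0.154 for SAUR60 without mycT replicate 1, 0.128 for SAUR37 without mycT replicate 1 and 0.156 for SAUR66 without mycT replicate 2. The count of 7 became 2 without mycT replicate 1, 3 without mycT replicate 2, and 3, 1 and 2 without jazQ mycT replicates 1, 2 and 3. With limma on log2(TPM + 1) the count was 4, and SAUR66 did not pass in DESeq2 (adjusted p = 0.0648).

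**Figure D2:**
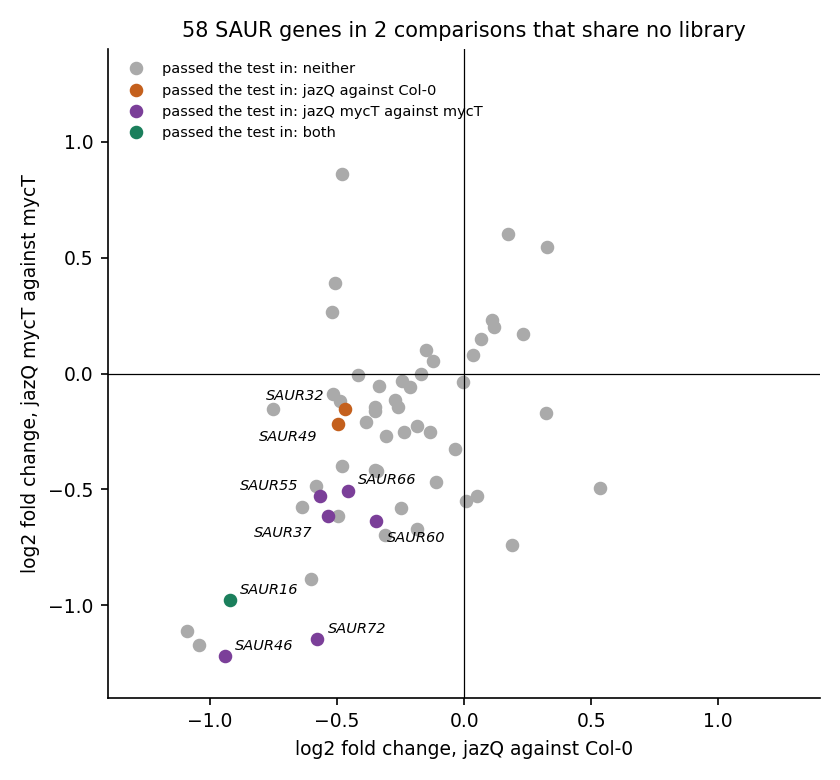
Each point is 1 of the 58 SAUR genes tested, with its log2 fold change in jazQ against Col-0 on the x axis and in jazQ mycT against mycT on the y axis, colored by the comparison in which it passed the edgeR test. In all, 41 genes lie below 0 on both axes, and SAUR16 passed in both.

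Set side by side, the 2 estimates of the jazQ effect pointed the same way for most members. Of the 58 genes, 41 (70.7%) were below 0 in both and 7 were above 0 in both. Over all genes tested, 31.5% were below 0 in both and 28.9% were above 0 in both. A group of 8 members, SAUR16, SAUR37, SAUR46, SAUR55, SAUR57, SAUR66, SAUR69 and SAUR72, was lower in both at an unadjusted p under 0.05, which is 13.8% of the members tested and compares with 3.25% of all genes. Across the 58 genes the log2 fold changes had a Pearson r of 0.49 and a Spearman rho of 0.42, and across all genes r was 0.44 and rho 0.33. Genes are not independent replicates, and the points share a normalization across all 12 libraries, so these values are descriptive.

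The interaction, here the jazQ effect in the mycT background minus that in the Col-0 background, asks whether the 2 estimates differ, and a shift between the sets of libraries cancels in it. No SAUR gene passed this test in edgeR or DESeq2, where 0.469% of all genes tested were called higher and 0.11% lower. An unadjusted p under 0.05 was found for 3 of the 58 members, SAUR1, SAUR63 and SAUR70, and for 11.3% of all genes tested. The interaction of SAUR16 was −0.06 on the log2 scale with a 95% interval from −0.63 to 0.51, and that of SAUR55 was 0.04 with an interval from −0.41 to 0.50. For SAUR32 it was 0.32 with an interval from −0.02 to 0.66. These intervals leave room for differences of about the size of the changes themselves, so the comparison does not show that the jazQ effects were equal in both backgrounds.

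Relative to Col-0, jazQ mycT gave the largest number of SAUR calls. SAUR16, SAUR32, SAUR37, SAUR45, SAUR46, SAUR49, SAUR65, SAUR66 and SAUR72 fell, which is 9 of 58, and none rose (edgeR, adjusted p under 0.05). Of all genes tested, 2.68% were called lower and 2.81% higher. At an unadjusted p under 0.05, 23 members were lower and 1, SAUR78, was higher, and 10.5% of all genes tested were lower. The median log2 fold change was −0.35, with 89.7% of the 58 genes below 0, against −0.0039 and 50.9% over all genes. This comparison crosses the sets of libraries, and over all genes 20.6% lay lower in every jazQ mycT library than in every Col-0 library in TPM. Among the members 23 of 58 did so.

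SAUR65 (AT1G29460, chr1:10307352-10308246, minus strand) had the lowest p. It measured 7.13, 8.00 and 7.15 TPM in Col-0 and 3.56, 2.83 and 3.39 TPM in jazQ mycT, which is −1.06 on the log2 scale (SE 0.20, edgeR, adjusted p = 0.00891), and it passed on omission of each of the 12 libraries. In jazQ and mycT its levels lay in between, at 6.26 ± 0.937 and 4.91 ± 1.34 TPM (SD, n = 3). Its neighbour SAUR66 (chr1:10321011-10321978, plus strand) measured 15.2, 18.6 and 19.1 TPM in Col-0, above the jazQ mycT values given above, and its log2 fold change was −0.70 (SE 0.14, edgeR, adjusted p = 0.0112). It was lost without jazQ mycT replicate 2 (adjusted p = 0.0567). Both genes belong to the SAUR61 to SAUR68 group, whose members promote elongation of hypocotyls and stamen filaments. SAUR45 (AT2G36210) measured 2.60, 2.42 and 1.70 TPM in Col-0 and 0.83, 1.06 and 1.02 TPM in jazQ mycT, a log2 fold change of −1.12 (SE 0.24, edgeR, adjusted p = 0.0171) that rests on 10 to 38 counts in a library.

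SAUR46 measured 5.88, 6.95 and 6.02 TPM in Col-0, SAUR37 15.5, 17.5 and 15.0 TPM, and SAUR72 15.3, 6.71 and 10.7 TPM, of which the second library came close to the highest jazQ mycT value of 6.13 TPM. Among the remaining 6 genes the log2 fold change was −1.04 for SAUR46, −0.94 for SAUR72, −0.84 for SAUR16, −0.72 for SAUR37 and −0.42 each for SAUR32 and SAUR49 (edgeR, adjusted p between 0.0160 and 0.0471). All 9 genes were lower in every jazQ mycT library than in every Col-0 library. The count of 9 fell to 3 without Col-0 replicate 1, to 4 without Col-0 replicate 2, and to 4, 1 and 3 without jazQ mycT replicates 1, 2 and 3. At most, the adjusted p rose to 0.185 for SAUR72, 0.170 for SAUR49, 0.106 for SAUR45 and 0.0903 for SAUR16, all without Col-0 replicate 1. It rose to 0.179 for SAUR46 and for SAUR32 without jazQ mycT replicate 3, and to 0.0712 for SAUR37 without jazQ mycT replicate 2. SAUR46 and SAUR49 did not pass in DESeq2 (adjusted p = 0.0831 and 0.0662).

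**Figure D3:**
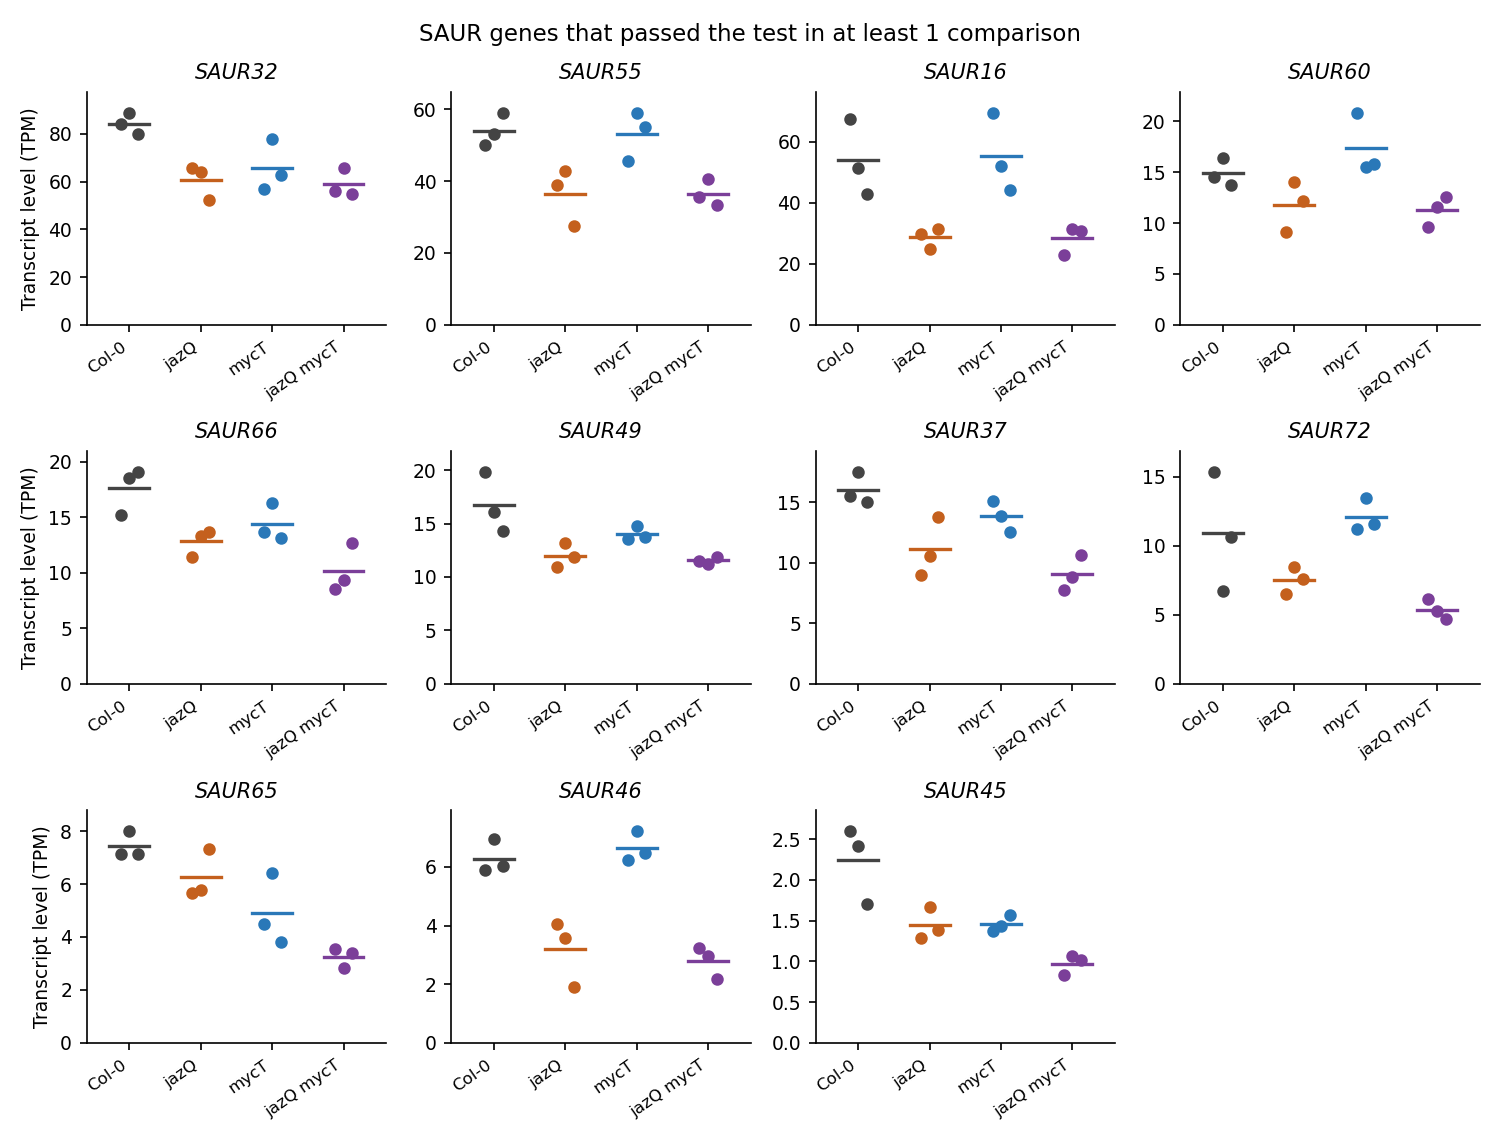
Transcript levels in TPM of the 11 SAUR genes that passed the edgeR test in at least 1 comparison, with a point for each of the 3 libraries of a genotype and a line for their mean, on axes that start at 0. SAUR16, SAUR46 and SAUR55 had nearly the same level in Col-0 and mycT and a lower one in both genotypes with jazQ, whereas SAUR65 and SAUR45 were lowest in jazQ mycT with jazQ and mycT in between. Relative to Col-0, SAUR55 passed in neither jazQ nor jazQ mycT, and SAUR46 did not pass in jazQ.

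The myc mutations alone gave no SAUR call. Relative to Col-0, 0 of 58 members passed in mycT with edgeR or DESeq2, where 0.957% of all genes were called higher and 0.847% lower. At an unadjusted p under 0.05, 7 members were lower and none was higher, and 8.17% of all genes tested were lower. The median of the 58 log2 fold changes was −0.15, with 67.2% below 0, against −0.0026 and 50.5% over all genes. This median was −0.03 without Col-0 replicate 1 and −0.07 without mycT replicate 3. The lowest p among the members belonged to SAUR36 (SAG201), a gene tied to leaf senescence, at 17.77, 14.86 and 11.29 TPM in Col-0 and 10.13, 8.86 and 10.02 TPM in mycT (log2 fold change −0.51, edgeR, adjusted p = 0.129). The summed level of 906, 912 and 812 TPM in mycT overlapped with that of Col-0. In all, 10 of the 58 members were lower in mycT with no overlap, against 18.8% of all genes. Without Col-0 replicate 3, SAUR36 passed (adjusted p = 0.0441).

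Adding the myc mutations to jazQ likewise gave no call. In jazQ mycT relative to jazQ, 0 of 58 members passed with edgeR or DESeq2, 2 were lower and 1 was higher at an unadjusted p under 0.05 (7.47% of all genes tested were lower), and the median was −0.08 with 55.2% below 0. Over all genes, 1.33% were called higher and 0.876% lower, and 51.7% were below 0. The members lower at the unadjusted threshold were SAUR65 (log2 fold change −0.81) and SAUR9 (−0.55), and SAUR5 was higher (0.85). With limma on log2(TPM + 1), SAUR65 passed (adjusted p = 0.0237). Without overlap in TPM, 8 of the 58 members were lower in jazQ mycT, against 19.3% of all genes tested. SAUR16 averaged 28.7 ± 3.4 TPM in jazQ and 28.4 ± 4.73 TPM when the myc mutations were added (SD, n = 3), and its log2 fold change was 0.08.

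**Figure D4:**
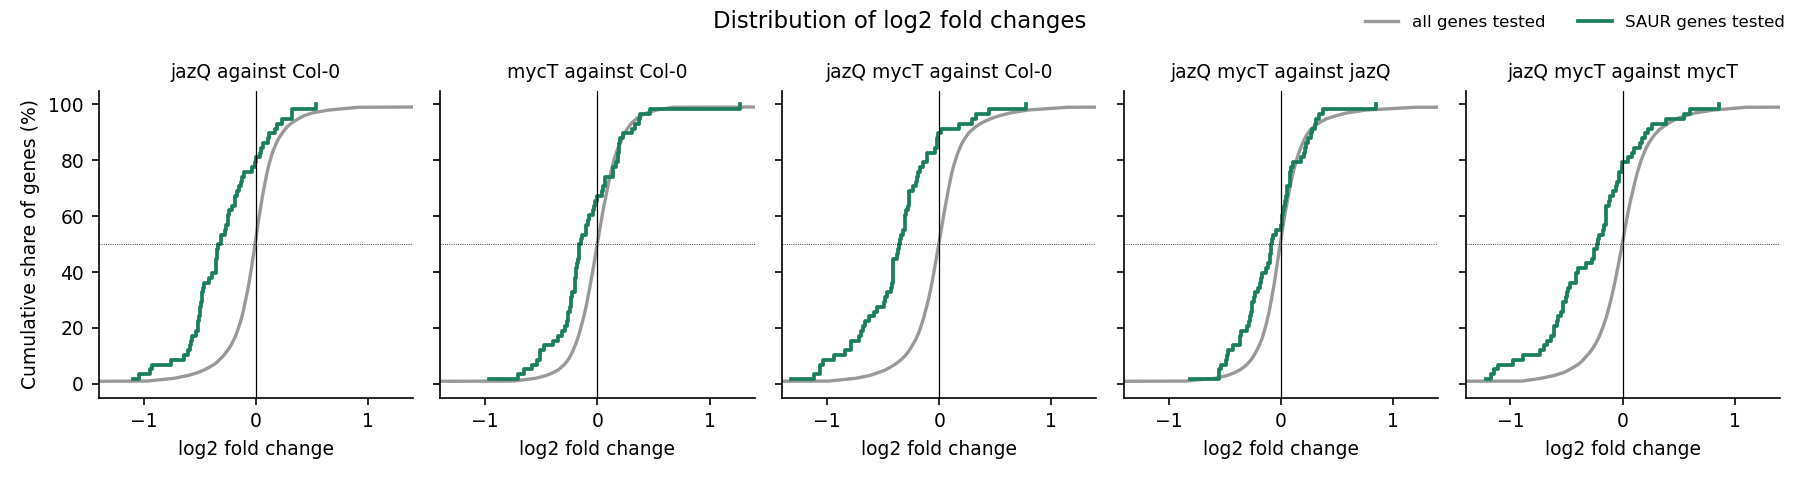
Cumulative share in percent of the 58 SAUR genes tested (green steps) and of all 20888 genes tested (gray line) against the log2 fold change, for 5 comparisons. The green line lies left of the gray one in the comparisons of jazQ with Col-0, jazQ mycT with Col-0 and jazQ mycT with mycT, with medians of −0.32, −0.35 and −0.22, and near it for jazQ mycT against jazQ, with a median of −0.08. For mycT against Col-0 the green line has a median of −0.15, against −0.0026 for the gray one.

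The members best known for growth by elongation were measured at modest levels. SAUR19 to SAUR24, which promote hypocotyl elongation when stabilized or overexpressed, are read here as a sum because their counts cannot be split with certainty. The sum was 25.2, 28.5 and 25.6 TPM in Col-0 and 26.9, 18.8 and 23.0 TPM in jazQ. It was 20.04, 27.03 and 18.93 TPM in mycT and 17.1, 19.5 and 29.8 TPM in jazQ mycT, and the groups overlapped in every comparison. The log2 fold change of the summed counts relative to Col-0 was −0.24 (SE 0.18) for jazQ, −0.18 (SE 0.17) for mycT and −0.215 (SE 0.17) for jazQ mycT (edgeR, adjusted p = 0.567, 0.648 and 0.535). SAUR63, which drives hypocotyl and stamen filament elongation, measured 21.1 ± 2.56 TPM in Col-0 and averaged between 15.8 and 15.9 TPM in the mutants (SD up to 3.85, n = 3). Its log2 fold change in jazQ was −0.42 (edgeR, adjusted p = 0.109). It shares 29.3% of its 50-base stretches with other genes, SAUR68 included, so its counts carry the same uncertainty.

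Of the other members known by name, SAUR15, SAUR41 and SAUR76 passed no test (edgeR). SAUR15 (SAUR-AC1), the classic auxin-induced SAUR of Arabidopsis, averaged 4.53 ± 1.06 TPM in Col-0 and 3.42 to 3.62 TPM in the mutants, and the log2 fold change of jazQ was −0.35 with a 95% interval from −1.10 to 0.40. SAUR41 averaged 3.71 ± 0.710 TPM in Col-0 and 2.32 ± 0.438 TPM in jazQ mycT (log2 fold change −0.58, edgeR, adjusted p = 0.107). SAUR76 averaged 3.63 ± 2.18 TPM in Col-0 and 2.02 ± 0.708 TPM in jazQ mycT, with an interval of the log2 fold change from −1.64 to 0.07. The abundant SAUR78 and SAUR14 did not share the lower levels. SAUR78 measured 123 ± 9.13 TPM in Col-0 and 141 ± 19.3 TPM in jazQ mycT, and SAUR14 measured 59.6 ± 4.46 TPM and 63.6 ± 14.8 TPM (SD, n = 3). Among the other abundant members, SAUR6, SAUR31, SAUR50, SAUR59 and SAUR68 had log2 fold changes between −0.50 and −0.18 in both jazQ and jazQ mycT relative to Col-0, and none passed (edgeR).

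Neighbouring genes did not always move alike. In the cluster of 8 genes on chromosome 1 (SAUR61 to SAUR68, chr1:10301377-10323239), all 7 genes tested were below 0 in jazQ, from −0.58 to −0.25, and all 7 were below 0 in jazQ mycT relative to mycT, from −0.58 to −0.01. In the cluster of 7 genes on chromosome 4 that runs from SAUR49 to SAUR5, all 6 genes tested were below 0 in jazQ, from −0.75 to −0.235, and 4 of the 6 were below 0 in jazQ mycT relative to mycT, from −0.25 to 0.39. In the other cluster on chromosome 4, SAUR14, SAUR15 and SAUR16 lie within a few kilobases of each other, yet the log2 fold change in jazQ was 0.12 for SAUR14 and −0.92 for SAUR16. In the cluster of 5 genes on chromosome 3, SAUR26 to SAUR29 were all above 0 in jazQ, from 0.05 to 0.325, and none of the 4 passed (edgeR).

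**Figure D5:**
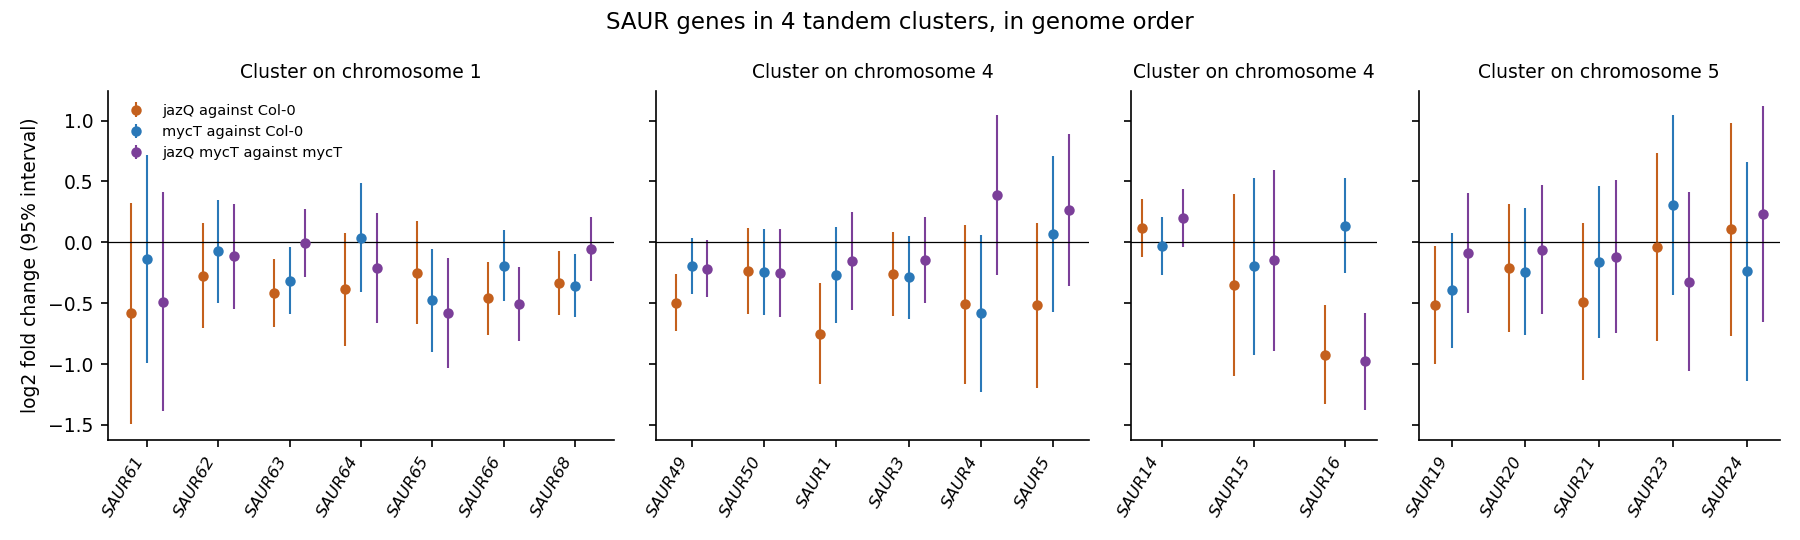
Log2 fold changes with 95% intervals of SAUR genes in 4 tandem clusters, in genome order, for jazQ against Col-0, mycT against Col-0 and jazQ mycT against mycT. SAUR16 lies at −0.92 and −0.98 in the comparisons that differ by jazQ while its neighbour SAUR14 lies at 0.12 and 0.20. SAUR13 is left out because its transcript overlaps another gene over most of its length.

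Sequences before the annotated starts of the genes were searched for motifs, over 250 bases and on both strands. TGTCTC and TGTCGG are forms of the auxin response element that ARF proteins bind, and CACGTG is the G-box that MYC and PIF proteins bind. CACGTG can share its last letters with the first of either of the others, which is not the case in the sequences printed here. Of the 11 members called in any comparison, SAUR66 was the one with a motif, and its upstream sequence is shown with that of SAUR16, which fell in all 3 comparisons that differ by jazQ and has no motif, and that of SAUR59, the one member with a G-box. Capitals mark the motifs, and the sequences are from RefSeq for TAIR10.1, on the plus strand of chr1:10320761-10321010 for SAUR66, chr4:18129987-18130236 for SAUR16 and chr3:22434614-22434863 for SAUR59.
SAUR66: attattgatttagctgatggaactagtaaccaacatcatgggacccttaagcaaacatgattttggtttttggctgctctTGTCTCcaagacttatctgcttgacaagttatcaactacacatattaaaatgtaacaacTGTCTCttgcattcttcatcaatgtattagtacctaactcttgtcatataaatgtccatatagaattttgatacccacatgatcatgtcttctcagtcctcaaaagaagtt
SAUR16: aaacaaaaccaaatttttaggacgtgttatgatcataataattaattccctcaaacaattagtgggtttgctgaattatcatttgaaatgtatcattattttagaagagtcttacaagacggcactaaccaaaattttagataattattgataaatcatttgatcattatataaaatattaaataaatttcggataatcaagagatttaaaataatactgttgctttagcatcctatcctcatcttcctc
SAUR59: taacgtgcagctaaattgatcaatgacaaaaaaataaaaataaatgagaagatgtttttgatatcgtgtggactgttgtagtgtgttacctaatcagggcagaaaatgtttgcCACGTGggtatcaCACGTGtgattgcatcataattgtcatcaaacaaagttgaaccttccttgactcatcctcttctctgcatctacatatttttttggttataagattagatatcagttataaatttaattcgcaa
SAUR66 had 2 copies of TGTCTC. SAUR59 had 2 copies of CACGTG, and its log2 fold changes relative to Col-0 were −0.24 for jazQ, −0.20 for mycT and −0.24 for jazQ mycT, none of which passed (edgeR). TGTCTC was in the sequence of 9.0% of the 78 members and of 10.9% of all 27443 protein-coding genes. TGTCGG was in 2.6% and 4.2%, and CACGTG in 1.3% and 6.5%. The search says only which letters are in these 250 bases.

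The genes around SAUR transcription and SAUR action were read from lists, called auxin lists here. The GH3 list takes every gene with GH3 in its description or symbol, JAR1 and PBS3 included, so not all of its enzymes act on auxin. None of the 23 Aux/IAA repressors, 15 ARF factors, 9 proton pumps, 9 D-clade PP2C phosphatases, 9 auxin synthesis enzymes, 11 auxin transport proteins, 8 upstream regulators and 17 GH3 enzymes tested rose or fell in jazQ relative to Col-0 with edgeR. At an unadjusted p under 0.05 these lists had 6, 3, 2, 4, 1, 3, 1 and 2 genes in that order, where 16.6% of all genes tested passed that threshold, and DESeq2 called 3 Aux/IAA genes and 1 transport gene. Of the 6 auxin receptors, AFB3 fell, with 39.2, 37.0 and 33.4 TPM in Col-0 and 29.9, 29.7 and 29.3 TPM in jazQ (log2 fold change −0.30, edgeR, adjusted p = 0.0371). In mycT the Aux/IAA gene IAA4 fell, from 246 ± 8.23 to 176 ± 20.2 TPM (SD, n = 3, log2 fold change −0.39, edgeR, adjusted p = 0.0291), and it was the one call by edgeR in these lists, where DESeq2 called 3 Aux/IAA genes.

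In jazQ mycT relative to Col-0, edgeR called lower 2 of 23 Aux/IAA repressors, 1 of 15 ARF factors, 1 of 9 D-clade phosphatases, 1 of 9 synthesis enzymes, 2 of 11 transport proteins, 1 of 8 upstream regulators and 2 of 17 GH3 enzymes, where 2.68% of all genes tested were called lower. No gene of these lists was called higher. TAA1, which makes the precursor indole-3-pyruvate, measured 19.5, 17.9 and 14.5 TPM in Col-0 and 10.7, 10.7 and 11.5 TPM in jazQ mycT (log2 fold change −0.56, edgeR, adjusted p = 0.0203). The efflux carrier PIN7 measured 77.42, 74.84 and 70.48 TPM in Col-0 and 45.16, 55.34 and 50.02 TPM in jazQ mycT (log2 fold change −0.47, edgeR, adjusted p = 0.00871), and the influx carrier AUX1 fell by 0.29 on the log2 scale (edgeR, adjusted p = 0.0122). In all of these the libraries did not overlap. The Aux/IAA genes IAA4 (−0.32) and IAA29 (−0.96) fell, as did ARF8 (−0.43), PIF7 (−0.46), a factor that drives elongation in shade, and the GH3 genes GH3.3 (−0.90) and DFL2 (−0.40), all as log2 fold changes with an edgeR adjusted p between 0.0109 and 0.0367. AT5G02760, one of the D-clade phosphatases on which SAUR proteins act, fell by 0.78 on the log2 scale (edgeR, adjusted p = 0.0365), and no proton pump passed with edgeR (1 at an unadjusted p under 0.05, 1 with DESeq2).

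Relative to mycT, jazQ mycT had lower levels of TAA1, PIN7, AUX1, IAA29, ARF8, PIF7, AT5G02760 and DFL2, with log2 fold changes between −0.96 and −0.27, and also of IAA12 (−0.27), BES1 (−0.175), a brassinosteroid response factor, and the phosphatase AT4G38520 (−0.21). The Aux/IAA gene IAA18 (0.26) and the phosphatase AT5G06750 (0.30) were higher. All had an edgeR adjusted p between 0.00581 and 0.0480. The lower genes were 2 of 23 Aux/IAA repressors, 1 of 15 ARF factors, 2 of 9 D-clade phosphatases and 1 of 9 synthesis enzymes. They also included 2 of 11 transport proteins, 2 of 8 upstream regulators and 1 of 17 GH3 enzymes. Of all genes tested, 3.77% were called lower and 4.05% higher in this comparison. PIF7 measured 16.4, 16.7 and 16.7 TPM in mycT and 9.58, 13.0 and 10.6 TPM in jazQ mycT. Relative to jazQ, the proton pump gene AHA3 (−0.27) and the GH3 genes GH3.3 (−0.88) and DFL1 (−0.45) were lower in jazQ mycT (edgeR, adjusted p between 0.0309 and 0.0467). These were 1 of 9 proton pumps and 2 of 17 GH3 enzymes tested, where 0.876% of all genes tested were called lower. PIN7 in both comparisons and PIF7 and IAA18 relative to mycT, like ARF8 relative to Col-0, passed without each single library. The other calls in these lists were lost on omission of at least 1 library.

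Whole seedlings hold roots and shoots, and SAUR genes differ between organs, so organ markers stand beside these values. The 18 root markers summed to between 238 and 268 TPM in the Col-0 libraries, 236 and 249 TPM in jazQ, 256 and 274 TPM in mycT, and 194 and 234 TPM in jazQ mycT. The jazQ mycT sums thus lay below all others, though the gap to the jazQ sums was narrow. The lowest sum of every auxin list and of the shoot markers was also in a jazQ mycT library. Of the 17 root markers tested, none passed relative to Col-0 in jazQ or jazQ mycT (edgeR and DESeq2, 1 each at an unadjusted p under 0.05). The iron transporter IRT1 and the endodermal barrier genes CASP1 and ESB1 were lower in jazQ mycT than in mycT (edgeR, log2 fold changes −0.59, −0.38 and −0.455). These are 3 of 17, where 3.77% of all genes tested were called lower. The 17 shoot markers summed to between 41001 and 45707 TPM in Col-0, 44585 and 50582 TPM in jazQ, 47209 and 56660 TPM in mycT, and 39482 and 51011 TPM in jazQ mycT. These sums rest in large part on highly expressed photosynthesis genes, with RBCS1A alone at 9760 TPM on average in Col-0. The study reported more photosynthesis transcripts in mycT, so the sums cannot tell the shoot share from a change in these genes. Of the 16 shoot markers tested, none passed in jazQ with edgeR (2 at an unadjusted p under 0.05, 1 with DESeq2). In mycT relative to Col-0, RBCS1A, RBCS2B, RBCS3B and PSBO1 were higher (edgeR), where 0.957% of all genes tested were called higher. These 4 calls were lost on omission of 9, 4, 2 and 7 of the 12 libraries in that order. None of the 4 passed with limma on log2(TPM + 1). RBCS2B was also higher in jazQ mycT than in Col-0 (log2 fold change 0.37, edgeR, adjusted p = 0.0246) and than in jazQ (0.37, adjusted p = 0.0438). Relative to mycT, no shoot marker passed in jazQ mycT with edgeR (5 at an unadjusted p under 0.05), DESeq2 called 3, and 15 of 16 were below 0 with a median of −0.21. In jazQ relative to Col-0 the median was 0.10 for shoot markers, with 5 of 16 below 0, and 0.00 for root markers, with 8 of 17 below 0. In jazQ mycT relative to Col-0 it was 0.08 for shoot markers and −0.13 for root markers, with 6 of 16 and 12 of 17 below 0. The root markers WOX5, PLT1, PLT2 and NRT2.1 and the shoot marker CLV3 averaged under 1 TPM. The part of organ proportions in the SAUR values was not tested, and in RNA from whole seedlings fewer cells of a type and less RNA per cell cannot be told apart.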

How the data were processed

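RNA-seq of whole seedlings was analysed from 2 tables. The authors filtered single-end reads of 50 bases, assigned them to TAIR10 gene models with RSEM v1.2.11 and deposited, for each gene and library, the expected count, given as a whole number without normalization, and the TPM, which is scaled by gene length and library depth. The strand of the libraries and the aligner are not given in the sources used here, so reads of antisense or overlapping genes cannot be told apart. The tables hold 33602 genes, and no column was left out.

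Expected counts of all 12 libraries entered 1 quasi-likelihood fit per gene (edgeR v4.0.16, R v4.3.3) with genotype as the factor, TMM scaling, and the low-count filter filterByExpr, leaving 20888 genes. Calls were made at an adjusted p under 0.05 (Benjamini-Hochberg, all genes tested). The study itself used DESeq. The named genes were members called in any comparison, the 10 most abundant members, members known by name (SAUR15, SAUR19 to SAUR24, SAUR32, SAUR36, SAUR41, SAUR63 and SAUR76), and called genes of the auxin lists, at most 4 per list and comparison. Other members are named where a small count or a cluster called for it, after their values were seen. The members and lists were chosen with earlier results of these data known. ARF3 was not matched. Gene names, coordinates and sequences came from RefSeq TAIR10.1, and proteins were translated from its coding sequences. Alternatives were RLE normalization, DESeq2 v1.42.0, no filter, the compared genotypes alone, the replicate number as a block, limma v3.58.1 on log2(TPM + 1) and log2(TPM + 0.1) for genes averaging 1 TPM or more, the first of these without that filter, an adjusted p under 0.01, near-identical genes summed (at least 90% identical proteins), members by description or symbol alone and omission of each library. Omission of ribosomal and organelle genes was added after seeing the data. The fit was tested on simulated data. Deviations from the genotype means correlated between Col-0 and mycT libraries of equal number in each of 3 pairs (0.134 to 0.307, across genes). These genotypes belong to different sets of libraries by first deposit. For mycT relative to Col-0 the block also gave 0 member calls, and 297 calls over all genes tested. The 3 libraries of a genotype came from independent RNA samples, each from pooled seedlings, by the methods of the study.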

Additional observations from a re-analysis of the deposited data

How the results depend on the processing

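With 3 libraries per genotype, most SAUR calls sat close to the threshold. Of the 19 calls, none reversed under any alternative, 2 passed without each library in turn (SAUR65 in jazQ mycT relative to Col-0 and SAUR16 in jazQ mycT relative to mycT), and the other 17 were lost on omission of 1 to 9 of the 12 libraries. The same 2 passed under each other normalization, filter, test and threshold that was run. All 19 passed with RLE normalization, with near-identical genes summed and without ribosomal and organelle genes. The summing joined none of the called members, so keeping their calls under it was close to fixed in advance. The compared genotypes alone gave 12 of the 19.

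For jazQ relative to Col-0, where 3 members passed, DESeq2 and the fit without a filter on low counts each gave 5, limma on log2(TPM + 1) without a filter gave 1, and an adjusted p under 0.01 and members by the symbol alone gave 0. For jazQ mycT relative to Col-0, where 9 passed, an adjusted p under 0.01 gave 1 and the symbol alone 0. For jazQ mycT relative to mycT, where 7 passed, limma gave 4 with either pseudocount and 3 without a filter, an adjusted p under 0.01 gave 1 and the symbol alone 0. For jazQ mycT relative to jazQ, where none passed, limma gave 1 with either pseudocount. By the symbol alone only SAUR15 and SAUR68 remain, which passed in no comparison, so its count of 0 was fixed in advance. The cause of the other differences was not tested. Shares over all genes are not given here for these fits, so the counts show only how the calls depend on the processing.

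Omission of single libraries gave 0 to 4 calls for jazQ relative to Col-0, 0 to 1 for mycT relative to Col-0, 1 to 10 for jazQ mycT relative to Col-0 and 1 to 7 for jazQ mycT relative to mycT. For libraries of equal number, no pair of genotypes but Col-0 with mycT had 3 correlations over 0.1. In the other pairs 1 to 3 of 6 libraries correlated best with their own number, against 6 of 6 for Col-0 with mycT. A pairing was thus not seen in the other pairs, but 3 correlations for each cannot exclude it. The replicate block gave 3, 10 and 6 member calls in jazQ and jazQ mycT relative to Col-0 and in jazQ mycT relative to mycT, where SAUR55 and SAUR60 were lost, and none elsewhere. Over all genes tested the block gave 805, 1332 and 1780 calls in the same order, against 597, 1145 and 1635 without it. Counting depth limited the low members most, as 20 of 78 could not be tested and SAUR45 and SAUR46 rested on 7 to 40 counts in a library.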
